A study of Mus musculus with 2 samples.

Results

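The genes described here encode the proteins of the mitochondrial ribosome. They were taken as every probe outside the controls whose gene name in the array files is Mrpl or Mrps followed by a number, which gave 119 probes for 77 genes, out of 56605 probes under 37074 gene names on the array. By name, 48 genes with 70 probes belong to the large subunit (Mrpl) and 29 genes with 49 probes to the small subunit (Mrps). Total RNA from mouse blood was hybridised to Agilent arrays in 1 colour, and heated and control blood had 1 array each. By the labels' account, the heated blood sample was kept at 37 °C (water bath, 1 h) before 1 h at 38.5 °C, and the question was which genes the heat affects. No temperature or time was given for the control, and the labels gave no strain, genotype, sex or age and did not say whether animals or drawn blood were heated, so the heat cannot be told apart from the pretreatment or the handling. The labels spoke of 3 replicates per line, yet heat and control are each seen on 1 array in these data, and the differences carry neither a replicate check nor a p-value.

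The mitochondrial ribosome translates the few proteins that mitochondrial DNA encodes, all of them membrane subunits of the respiratory chain and the ATP synthase. Its RNAs come from mitochondrial DNA, while all of its proteins are encoded in the nucleus, made on cytosolic ribosomes and imported. The small subunit binds the mRNA and decodes it, and the large subunit joins the amino acids and releases the chain through a tunnel at the inner membrane. Many of the proteins have counterparts in bacterial ribosomes, and the others arose in the mitochondrial lineage. Each measured value below comes from a 60-base probe, and the brightness of a probe depends on its sequence and place as well as on the transcript, so levels of different genes were not ranked as RNA amounts.

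The labelled tissue was blood, with red cells lysed and globin transcripts depleted per the labels' protocols. All 6 monocyte and macrophage markers and all 3 markers of dividing cells were well above background on both arrays. On each array this held for 4 of 6 neutrophil, 3 of 5 T cell, 2 of 4 NK cell, 1 of 4 B cell, 1 of 5 red cell and 1 of 4 platelet markers. The B cell genes Cd79a and Ms4a1 and the red cell genes Hbb-b1 and Alas2 were not. Heat minus control on the log2 scale ran from 0.00 to 0.17 for the monocyte and macrophage markers and from -0.01 to 0.09 for those of dividing cells. Single markers of other cells lay farther from 0, namely the NK cell gene Prf1 at -1.68 (dim, with 46.0 and 151.6), the B cell gene Cd79b at 0.33 and the platelet gene Pf4 at 0.26. The part of cell composition in the differences below was not tested, and in such bulk RNA fewer cells of a type and less RNA per cell cannot be told apart.

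Some of the probes share their target, and others of the same gene read separate places, which matters for how far their values are independent. Of the 119 probe sequences, all were distinct and none was also printed under another gene name. In 3 genes of the small subunit, a pair of probes overlapped by 40 to 55 bases, so they read nearly the same stretch of RNA. The first 30 bases of each probe of these pairs are shown, and the stretch common to both 30-base pieces is in capitals. The overlap runs on past these pieces, so part of it is in lower case or not shown. The full probes lie on mm9 at chr17:36047331-36047390 and chr17:36047326-36047385 (Mrps18b, minus strand), chr5:101233411-101233470 and chr5:101233418-101233477 (Mrps18c, plus strand), and chr3:95666577-95666636 and chr3:95666557-95666616 (Mrps21, minus strand).
Mrps18b, first: ggtgtGTCCCTGATTTAAACCTCCTGGCTC
Mrps18b, second: GTCCCTGATTTAAACCTCCTGGCTCagctt
Mrps18c, first: tcagataCCGAGAATAAATTTTGTATTTGT
Mrps18c, second: CCGAGAATAAATTTTGTATTTGTgaagttc
Mrps21, first: ctttctttatccagccaagtTCTGTTACTT
Mrps21, second: TCTGTTACTTttctctataataaaaactcc

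The transcripts of all 77 genes were detected on both arrays. Of the 119 probes, 112 were well above background in heated blood (94.1%) and 113 in control blood (95%), against 53.8% and 52.0% of all probes outside the controls. The differences rest on these 112 probes, which passed on both arrays and cover each gene at least once, and a gene with several of them took their mean. Another 6 probes, of Mrpl23, Mrpl47, Mrpl48, Mrpl52, Mrps5 and Mrps18b, were below the background limit on both arrays, and each of these genes had at least 1 other probe above it. Another probe of Mrpl9, a large subunit protein, passed on the control array alone. It read 26.2 in heated and 44.2 in control blood, 1.64-fold lower in the heated sample after scaling. With normexp and quantile normalization its difference was only -0.26 on the log2 scale. The heat signal of this probe lay near 24.9, the lowest heat signal flagged as well above background, so the ratio is uncertain. The other probes of Mrpl9 differed by 0.06 and 0.04, so this gene's transcript showed no such gap where it was bright.

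**Figure D1:**
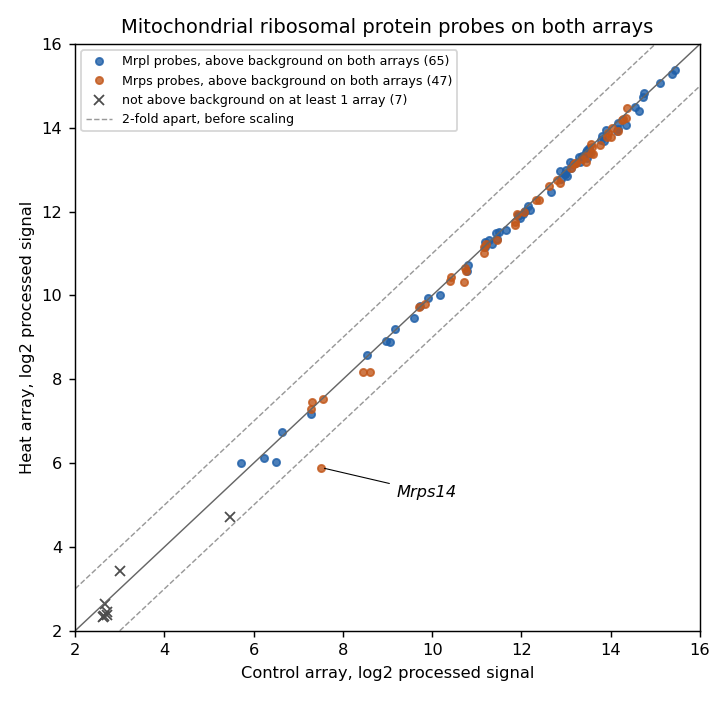
Log2 processed signal of each mitochondrial ribosomal protein probe on the control array (x axis) and on the heat array (y axis), before scaling between the arrays. The 65 Mrpl and 47 Mrps probes above background on both arrays follow the diagonal over a wide range of brightness, and 1 dim probe of Mrps14 lies beyond the dashed line of 2-fold.

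The genes of the mitochondrial ribosome were nearly alike in heated and control blood. Of the 77 genes, 72 lay within 0.2 of 0 on the log2 scale (93.5%), where 74.7% of all 18562 measured genes did. None was at least 2-fold higher (background 0.21%) and none at least 2-fold lower (background 0.453%), 0 were at least 0.5 higher (background 1.86%) and 1 was at least 0.5 lower (background 2.52%), which was Mrps14. The members were brighter than most genes, with a median log2 level of 12.64 against 9.15, and bright probes vary less. Among 3175 other genes between 11.03 and 13.50, the brightness of the middle 50% of the members, 88.8% lay within 0.2 of 0.

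Values below 0 were more frequent among the members than among all genes, but they were small. Of the 77 genes, 51 lay below 0 (66.2%), against a background of 47.8%, and 26 above 0 (33.8%), against a background of 52.2%. The 3175 genes of like brightness were below 0 in 51.7% of cases. The median of the members was -0.028 and that of all genes 0.0076, while the middle 50% of the members lay between -0.078 and 0.029. The members' median stayed below 0 under each of 10 other ways of processing, from -0.034 to -0.015. Relative to the median of all genes, however, it turned to 0.064 when dim probes were kept, since the median of all 37068 genes then fell to -0.099. Of the 77 genes, 35 were below 0 and 13 above 0 under all of these settings, and 29 changed sign in at least 1 of them. The matching shares over all genes were not computed, so these counts have no background beside them.

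**Figure D2:**
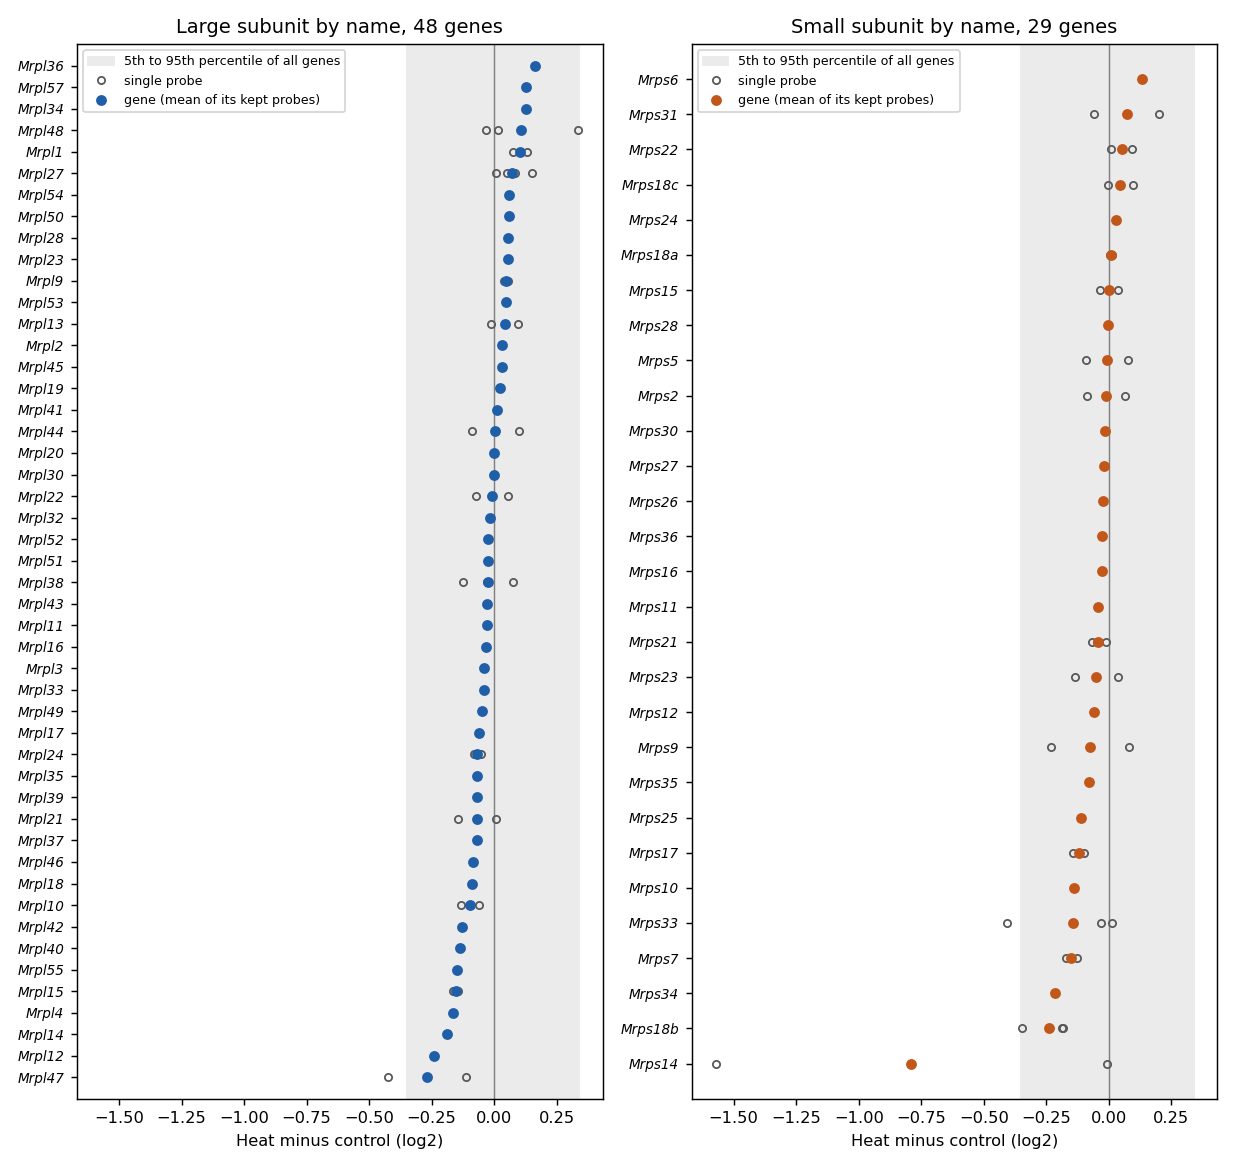
Heat minus control (log2) for each gene of the large subunit (left, 48 genes) and small subunit (right, 29 genes), with filled circles for genes, open circles for single probes of genes with several and grey for the 5th to 95th percentile of all genes (-0.35 to 0.34). All genes other than Mrps14 lie inside the grey band, and the single probes that leave it belong to Mrps14, Mrps33 and Mrpl47.

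The large and small subunits hardly differed in their medians, while their shares below 0 were less alike. The median was -0.025 for the 48 Mrpl genes and -0.028 for the 29 Mrps genes, a gap of 0.004. Values below 0 were found for 29 of 48 Mrpl genes (60.4%) and 22 of 29 Mrps genes (75.9%), against 47.8% of all genes. The proteins of Mrps18a and Mrps30 sit in the large subunit despite their names, and Mrps36 encodes a protein now assigned to the 2-oxoglutarate dehydrogenase complex. With these 3 moved accordingly, the medians were -0.024 for 50 large subunit genes and -0.042 for 26 small subunit genes, a gap of 0.019, close to that between the cytosolic large and small subunits (0.021). Mrps18a had signals of 1302 and 1330 (heat and control) and a difference of 0.0077. Mrps30 had 4926 and 5109 and a difference of -0.014, and Mrps36 had 9161 and 9593 and a difference of -0.028, so all 3 were level between the samples. Genes with a bacterial counterpart had a median of -0.032 (48 genes) and those without of -0.024 (28 genes).

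Within the large subunit, the lowest value belonged to Mrpl47, whose protein sits at the rim of the exit tunnel. Averaged over its probes, it read 525 in heated and 649.9 in control blood, a difference of -0.27. Its probe on a curated transcript record was bright and differed by -0.11, and a dim one on an Ensembl record, with 65.7 and 90.7, differed by -0.43. Mrpl12 encodes the flexible stalk protein that recruits translation factors and also binds the mitochondrial RNA polymerase. It read 17111 in heated and 20785 in control blood, a difference of -0.24 at a bright probe, and kept -0.25 to -0.18 over the settings. Its stalk partners Mrpl10 and Mrpl11 differed by -0.097 and -0.03. Mrpl14, where an assembly factor docks that keeps the subunits apart, had 21745 and 25450 (-0.19), and Mrpl4, a conserved protein of the tunnel wall, had 15591 and 17969 (-0.17). Mrpl15, a conserved large subunit protein, had 2953 and 3376 (-0.15) with its probes at -0.16 and -0.15. In each of these genes the control array was the brighter at every probe used, by at most 1.34-fold after scaling.

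The other end of the large subunit lay closer to 0. Mrpl36, one of its smallest proteins, had the highest value of all members at 0.16, reading 8075 in heated and 7416 in control blood. Mrpl57, which has no bacterial counterpart, had 29228 and 27501 (0.13), and Mrpl34 had 9285 and 8739 (0.13). Mrpl57 turned to values just below 0, down to -0.02, with normexp background correction, whereas Mrpl36 kept 0.08 to 0.18 over all settings. Mrpl1, the protein of the other stalk near the exit site for tRNA, had 1210 and 1157 (0.10). Mrpl27, whose bacterial counterpart reaches the peptidyl transferase centre, had 2383 and 2327 (0.07) with all 4 of its probes above 0. Mrpl54 and Mrpl50, both without a bacterial counterpart, had 0.06 each and reached -0.01 and -0.05 with normexp background correction. Mrpl41, a protein also linked to cell death, had 10969 and 11191 and a difference of 0.0097. The difference is above 0 although the raw signal is lower on the heat array, because each array was scaled to its own 75th percentile of signal (604 and 620.5).

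The 4 brightest members, with Mrpl57 above among them, stayed close to 0. Mrpl51 read 42289.6 in heated and 44165 in control blood (-0.024), Mrpl33 had 40042 and 42268 (-0.039), and Mrpl20 had 34289 and 35215 (0.0002). The dimmest was Mrpl35, with 144 and 155 (-0.068), whose only probe lies at position 3368 of its transcript record. Mrpl38 of the central protuberance, at 676 and 707, differed by -0.026. Apart from Mrpl57 and the dim Mrpl47, the genes at both ends of the brightness range differed by less than 0.084. That is the SD of heat minus control at repeated spots of 1 probe around their mean.

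Within the small subunit, Mrps18b and Mrps34 followed Mrps14 at the low end. Mrps18b belongs to a set of relatives of a single bacterial protein. It read 6539 in heated and 7928 in control blood (-0.24), and its 3 probes differed by -0.35, -0.19 and -0.18, the last 2 being the overlapping pair shown above. The relatives did not share this: Mrps18c had 10636 and 10581 (0.046), with its overlapping probes at -0.0026 and 0.095, and Mrps18a lay at 0.0077. Mrps34, a protein without a bacterial counterpart, had 9382 and 11174 (-0.21). Mrps7, which helps to shape the mRNA path in the head of the subunit, had 5934 and 6764 (-0.15), with both probes lower in the heated sample (-0.13 and -0.17). Mrps12, the protein of the decoding centre, had 9795 and 10472 (-0.058). Mrps6 was the highest of the subunit, with 22593 in heated and 21158 in control blood (0.13).

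Mrps14, a protein of the small subunit head, had the lowest value of all members, and its probes disagreed. The gene value of -0.79 was the mean of 1 probe at -1.57 and another at -0.0076. The first, at position 155 of a predicted RefSeq record that was not found in the GRCm38.p6 gene table, read 59.5 in heated and 181.8 in control blood, 2.97-fold lower with heat after scaling. The second, at position 541 of a curated record, had 6866 and 7089 and was thus level between the samples. A value at least 2-fold lower was found for 127 of all 28755 probes in use (0.442%). The dim probe is the only 1 of the 112 members' probes past 2-fold, and with normexp and quantile normalization it fell to -0.92, while the authors' deposited table gave -1.60. Without Mrps14 the lowest member was Mrpl47, and with curated records alone it was Mrps18b at -0.27. The first 30 bases of both probes are shown because the call rests on them, at chr1:162125616-162125675 for position 155 and chr1:162129889-162129948 for position 541 (mm9, plus strand), with no letters marked.
Mrps14, position 155: ttcaggtgtgatccgtcatgtgaaagctgc
Mrps14, position 541: attgaattgtctttcaactttaaagcatag

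Probes of the same gene lay far closer together in the difference than in brightness. In the 28 members with several probes above background on both arrays, the differences of a gene's probes spanned a median of 0.137, against 0.154 for all 6304 genes with 2 to 4 such probes and 0.128 for the 2512 of the other genes that had a probe at log2 12 or more, which not all of the 28 had. The span was below 0.2 in 21 of the 28 (75%), against 61.1% and 68.2% of those genes. The brightness of the same probes spanned a median of 2.57 on the log2 scale, and up to 7.28 for Mrpl24 (signals of 69.2 and 10817 on the heat array), whose differences were -0.08 and -0.05. In 14 of the 28 (50%) the probes had opposite signs, against 46.5% and 46.6% of those genes, so the sign of a small difference often depended on the probe. The narrowest spans were 0.0089 for Mrps18a, 0.015 for Mrpl9 and 0.016 for Mrpl15.

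The widest spans came with dim probes. After Mrps14, Mrps33 had a span of 0.42, from its probes at -0.03, 0.01 and -0.41, of which the last had signals of 288 and 392 against 8410 and 8835 for the first. Mrps33 encodes a small subunit protein without a bacterial counterpart, and its gene value of -0.14 was 0.01 with the brightest probe alone. Mrpl48 of the central protuberance spanned 0.37, with bright probes at -0.03 and 0.01 and a dim one (64.4 and 52.3) at 0.34. Mrps9, a conserved protein of the head, spanned 0.31, with a probe at 0.08 (2408 and 2342) and a dimmer one at -0.23 (288 and 347). Mrps31 spanned 0.26, with its brighter probe at -0.06 and its dimmer one at 0.20. In each of these genes the probe farthest from 0 was the dimmest.

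Over all member probes the same held: 5 of 14 probes under a log2 level of 9 differed by at least 0.2 (35.7%), against 1 of 33 from 9 to 12 (3.03%) and 2 of 65 from 12 upwards (3.08%). For all 28755 probes the share was 26.2%, and by the same classes 39.7%, 16.7% and 9.75%. The members' bright probes thus differed between the arrays less often than other probes of their brightness, by count. No test is possible on 1 array a group.

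Probes nearer the 3′ end of a transcript were the brighter ones. In 16 members, 2 or more probes at least 60 bases apart lay on 1 curated transcript record, and the last was brighter than the first in 15 (93.8%) on both arrays, by a median of 2.03 on the log2 scale. The same held for 87.0% of 4083 such records over all genes, with a median of 2.09. The largest step among the members was 3.53 in Mrps18b, from position 260 to 992. The difference between heat and control had no such order. It was higher at the last probe in 8 of the 16, with a median change of 0.01.

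Mrps33 was the exception, with a step of -4.68 from its first to its last probe. The first 30 bases of its 3 probes are shown because they separate the bright part of the record from the dim one, at chr6:39752503-39755388 for position 295 (a span that includes an intron), chr6:39752333-39752392 for position 465 and chr6:39751879-39751938 for position 919 (mm9, minus strand), with no letters marked. The signals on the heat array were 8410, 16306 and 288 in this order.
Mrps33, position 295: gtttccttggcctttacagagatgagcatc
Mrps33, position 465: agtgcatctcattatcttcccgagtattag
Mrps33, position 919: ggttaaaaaggaaaaacagtttttagctca

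**Figure D3:**
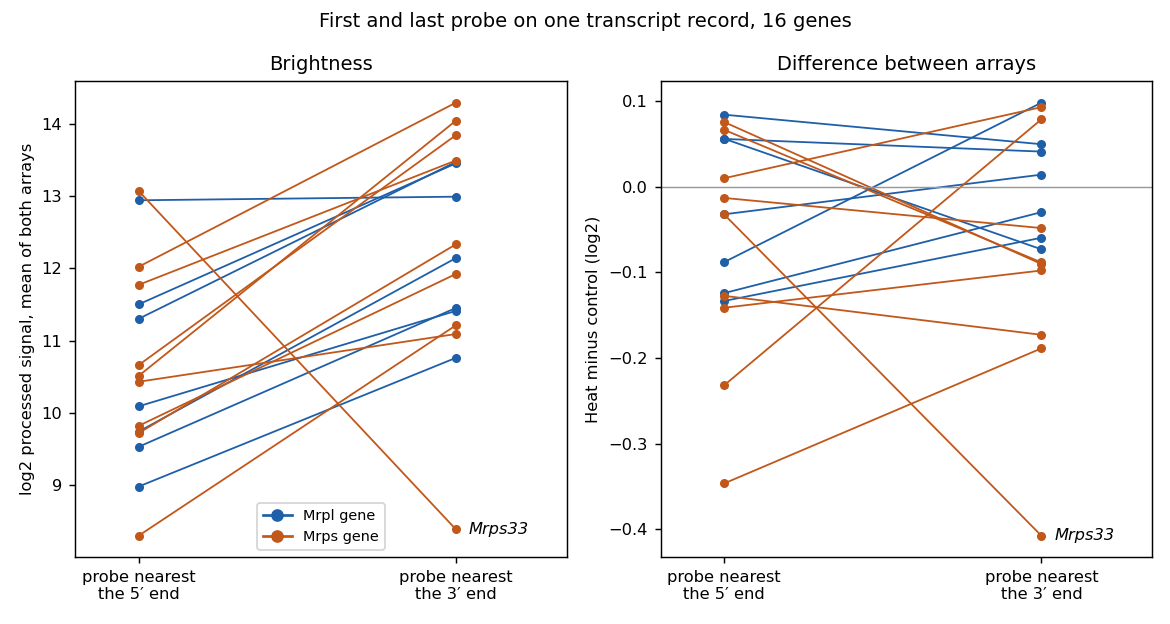
Log2 processed signal as a mean of both arrays (left) and heat minus control on the log2 scale (right) of the first and last probe on 1 transcript record, for 16 genes, with lines joining the probes of a gene. Brightness rises towards the 3′ end in 15 of the 16 and changes by -4.68 in Mrps33, whereas the differences run both ways.

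The kind of transcript record behind a probe went with its brightness. The 99 probes on curated RefSeq records were all above background on both arrays, with a median log2 level of 12.94. Of the 20 probes on other records (Ensembl, GenBank or a predicted RefSeq record), 13 were above background on both, with a median of 7.38. Over all genes these medians were 10.11 and 7.67. With curated records alone, all 77 genes were measured and none was 0.5 apart. Then 24 lay above 0 (31.2%), against a background of 49.6%, and 53 below 0 (68.8%), against a background of 50.4%, with 29 of 48 in the large subunit and 24 of 29 in the small.

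The partners of the mitochondrial ribosome also lay near 0, with median absolute differences of 0.035 for its proteins under other names, 0.066 for translation factors and 0.061 for assembly factors, against 0.057 for the members. The 6 ribosomal proteins listed under other names had a median of -0.011, with 3 above and 3 below 0. Among them were Gadd45gip1 at -0.14, Ptcd3, which binds mitochondrial RNA, at -0.10, and Dap3 at 0.04, which turned to -0.11 and -0.08 with normexp. The 13 mitochondrial translation factors had a median of 0.013, with 7 above 0 (53.8%, against 52.2% of all genes). Tufm, the elongation factor that delivers tRNAs, read 11664 in heated and 13039 in control blood (-0.12), the recycling factor gene Mrrf had -0.16 and the release factor gene Mtrf1l 0.17. The 23 assembly and rRNA modification factors had a median of -0.04, with 12 below 0 (52.2%, against 47.8% of all genes). Among these 12 were Mpv17l2 at -0.16 (probes at -0.41 and 0.10), Mterf3 at -0.15 and Gtpbp10 at -0.12. None of the genes in these 3 lists was 0.5 apart. The medians of the translation and assembly factors changed sign with the processing. With the brighter 50% of probes they were -0.046 and 0.004.

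The 22 tRNA synthetases of mitochondria and their partners had a median of -0.02, with 13 below 0 (59.1%, against 47.8% of all genes). Nars2, for asparagine, lay at 0.23 (0.06 and 0.03 with normexp), Rars2, for arginine, at -0.21, and Gars, which serves the cytosol too, at -0.17. Of 11 genes of mitochondrial DNA transcription and RNA stability, 10 were measured, with a median of -0.04 and 6 below 0. That median was 0.017 with normexp and the 75th percentile. Slirp, an RNA stability factor, had 0.28 (probes at 0.02 and 0.53), Mterf1a, a termination factor, 0.23 (0.00 and 0.45), and Pnpt1, an exoribonuclease, 0.15 (-0.08 and 0.39), so each rests on 1 of its probes. Of 9 transcription factors of mitochondrial biogenesis, 8 were measured and 7 lay below 0 (87.5%, against 47.8% of all genes), with a median of -0.061 that ran from -0.089 to -0.020 over the settings. Myc, which drives ribosome production in growing cells, read 1591 in heated and 2028 in control blood (-0.31) and was lower at both probes. Ppargc1b, a coactivator of mitochondrial genes, had -0.22 and Gabpa, an ETS factor, -0.11. Ppargc1a was not above background on both arrays.

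The gene families nearest in kind had medians nearer 0 in the main values. The 82 measured cytosolic ribosomal protein genes had a median of -0.0013, with 51.2% below 0, and the 80 measured nuclear genes of oxidative phosphorylation 0.0025, with 47.5% below 0. The cytosolic subunits were also unlike in this share. Below 0 were 42.9% of 49 large subunit genes (median 0.0079) and 63.6% of 33 small subunit genes (median -0.013). The latter share was close to the 66.2% of the members. Not every setting put these families nearer 0. With cyclic loess, the medians were 0.027 for the cytosolic large subunit, 0.002 for the small, 0.011 for oxidative phosphorylation and -0.022 for the members. With normexp and quantile normalization, they were 0.019, -0.01, 0.018 and -0.015 in the same order. In the cytosolic large subunit, the dim genes Rpl37 at 1.36 (259.7 and 104.0) and Rpl39l at -1.73 (51.7 and 175.5) lay farther from 0 than any mitochondrial member. With normexp, Rpl37 came to 0.98 and 0.94 and Rpl39l to -0.97 and -1.02, under the 75th percentile and quantile normalization respectively. Rplp0 had -0.54, and among the respiratory genes Cox6a2 had -0.67 and Cox6c -0.54, all nearer to 0 than Mrps14 in the main values. With normexp (75th percentile, then quantile), Cox6a2 at -0.586 and -0.594 and Cox6c at -0.618 and -0.599 lay farther from 0 than Mrps14. The latter had -0.468 and -0.488, and Rplp0 had -0.447 and -0.441. In the cytosolic small subunit, Rps12 had -0.30, Rps28 -0.26 and Rps20 -0.23, and the probes of the last 2 ran from -0.81 to 0.04 and from -0.66 to 0.05. Cox7a1 had 0.24, and 0.10 with normexp.

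**Figure D4:**
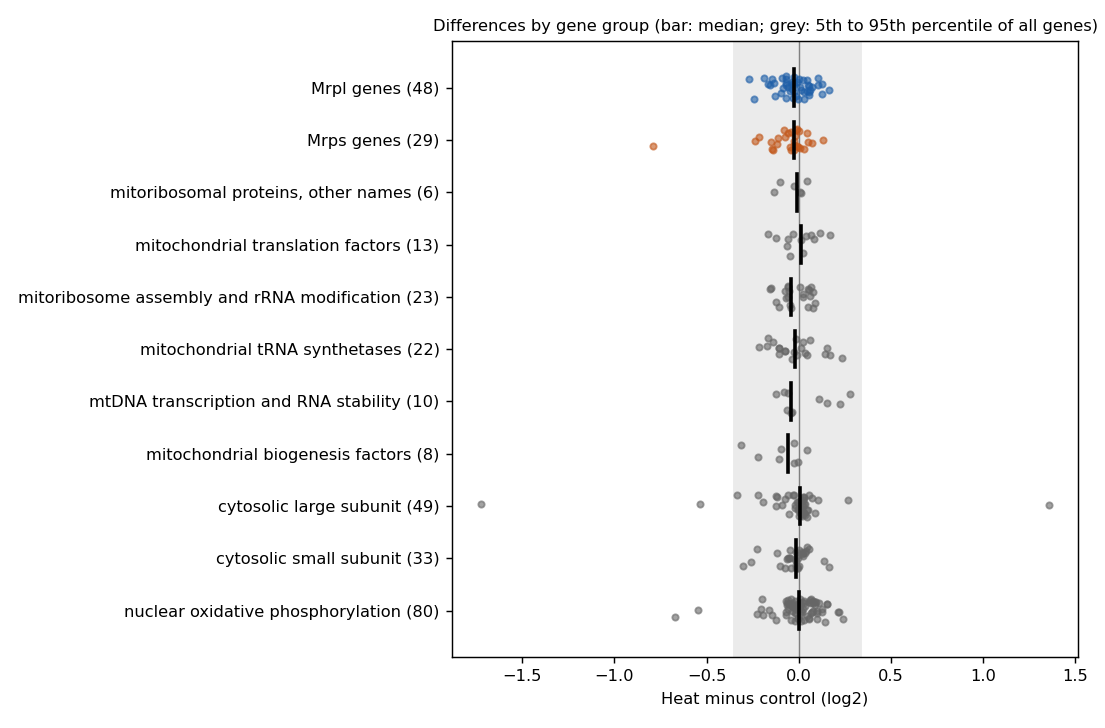
Heat minus control (log2) of each measured gene (points) in the Mrpl and Mrps genes and in 9 related groups, with black bars for medians and grey for the 5th to 95th percentile of all genes. All medians lie between -0.061 and 0.013, and the points beyond 1 in either direction are the cytosolic genes Rpl37 and Rpl39l, both of which come within 1 of 0 with normexp and the 75th percentile.

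Some sequence motifs were more frequent in the members' promoters than in all promoters, and the median differences hardly varied with them. RefSeq promoters (GRCm38.p6, from upstream of the transcript start to just past it) were found for 68 of the 77 genes, 74 promoters in all. NRF1, a factor known for nuclear genes of mitochondria, was searched by a consensus that allowed any base at 1 position. Its matches therefore need not be palindromes, and those shown in capitals below are not. ETS factors such as GABPA were searched as CCGGAAGT and YY1 as AAGATGGCG. Both strands were searched for these motifs, and 2 member promoters held more than 1 kind. The NRF1 motif was in 13 of the 74 promoters (17.6%) against 4.60% of all 32851, the ETS motif in 12 (16.2%) against 3.89% and the YY1 motif in 8 (10.8%) against 1.40%. At least 1 of them was in 41.9% of member promoters and 9.24% of all, and the motif TATAAA was in 6.76% against 13.6%. The members' promoters also had a higher GC content (median 58.5% against 52.7%), and its part in the motif shares was not tested. The median difference was -0.02 for genes with the NRF1 motif and -0.03 for those without, and -0.02 and -0.03 likewise for the ETS motif. Upstream parts of 2 promoters are shown with the NRF1 motif in capitals: Mrpl45, whose protein anchors the ribosome at the inner membrane, for holding the motif more than once (chr11:97315466-97315715), and Mrpl12, for its place among the lowest differences (chr11:120484387-120484636), both on the plus strand of GRCm38.p6.
Mrpl45: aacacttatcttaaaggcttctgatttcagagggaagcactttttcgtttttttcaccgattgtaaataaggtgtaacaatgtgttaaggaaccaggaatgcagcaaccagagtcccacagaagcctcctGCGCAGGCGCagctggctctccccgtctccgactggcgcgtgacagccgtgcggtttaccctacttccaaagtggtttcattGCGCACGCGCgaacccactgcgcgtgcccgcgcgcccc
Mrpl12: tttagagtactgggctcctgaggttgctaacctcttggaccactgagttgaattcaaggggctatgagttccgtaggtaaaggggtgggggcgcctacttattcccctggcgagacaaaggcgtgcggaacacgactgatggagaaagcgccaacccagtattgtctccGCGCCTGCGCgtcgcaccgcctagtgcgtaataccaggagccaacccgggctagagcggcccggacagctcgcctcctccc
Mrpl45 read 8999.6 in heated and 9057.5 in control blood, a difference of 0.029 after scaling. A match is a description of letters and not a binding site.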

How the data were processed

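The headers of the scanner output name Agilent Feature Extraction (10.7.1.1), protocol GE1_107_Sep09 and probe coordinates on mm9, whereas the submitters' processing notes give version 9.1. The deposited scanner output holds 1-colour intensity on a linear scale, as processed, mean and local background signals. Its other columns used, deposited as flags, mark controls, outliers, saturation and spots well above background. The authors' deposited log2 values lay within 0.003 of quantile-normalized processed signals for 99% of probes.

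Outlier spots (168 and 149, none of them a member's) were left out, spots of a probe were averaged after log2, and each array's 75th percentile was subtracted. Each member probe had 1 spot. A probe was used when more than 0.5 of its spots were well above background on both arrays, and genes were named as in the files. Of 100 member probes with a RefSeq record, 99 were found in the GRCm38.p6 table, all under the same symbol. The SD of heat minus control at single spots around their probe's mean, 0.084, came from 283 probes printed at several spots. It does not measure variation between arrays of the same group. No test was made, since the number of arrays limits the precision.

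Genes named with values are the 8 highest and 8 lowest members with 1 sign at every probe used, the 4 brightest and 4 dimmest, the 5 with the widest and 3 with the narrowest probe spans, members above background on 1 array or neither, 9 preset members, and up to 3 genes of each related list with the largest differences. Mrpl10, Mrpl11, Mrpl24, Mrpl45 and Mrps21 were added after their values were seen. The members, lists and rules were chosen with earlier results of these data known. The 0.2 band, brightness classes, record types, probe order, promoter motifs, bacterial counterparts, placing by structure and curated records alone were chosen after seeing the data. The gene differences and the 2-fold call were first tested on real probe levels with simulated noise and planted differences past 2-fold. The other computations, and differences as small as most of those given here, were not tested in this way. Alternatives were normexp (offset 50) with the 75th percentile or with quantile normalization, quantile normalization alone, cyclic loess, scaling to the median of detected probes, dim probes kept, the authors' values, the brighter 50% of probes, the brightest probe and the median over probes. Tools were limma 3.58.1 in R 4.3.3 (data.table version 1.17.8) and pandas 2.3.3, numpy 2.4.6 and matplotlib 3.10.9 in Python 3.11.15.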

Additional observations from a re-analysis of the deposited data

How the results depend on the processing

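The number of members at least 0.5 apart, 1 in the main values, was 0 under both normexp settings, among the brighter 50% of probes, with the brightest probe per gene and with curated records alone, where Mrps14 lay at -0.47 and -0.49 (normexp) or, without its dim probe, at -0.01. The number at least 2-fold apart was 0 under every setting. The members below 0 numbered 47 to 53 and their median lay between -0.034 and -0.015 over the 10 alternatives. Kept dim probes moved the share of all genes below 0 from 47.8% to 64.1%. Single comparisons with the main values numbered 865, with curated records alone and subunits by structure among them. Of these, 785 moved by less than the SD of single-spot differences (0.084) or, for counts, by at most 1.5 times. The other 80 moved further. This margin is wider than the main median of any gene group here, so a median could change sign within it. The sign changed between settings in 29 members, with Mrps33 (-0.14), Mrpl57 (0.13) and Mrpl48 (0.11) among them. Mrps14, the only member past 0.5, kept its sign but ranged from -0.81 to -0.01. No paired analysis was possible because each group held 1 array. For dim probes the limit is the signal over background, whose lowest passing values were 24.9 and 31.0.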
